A study of Homo sapiens with 12 samples.

Results

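Keratins are the intermediate filament proteins of epithelial cells, and a filament forms only when an acidic type I keratin pairs with a basic type II keratin. KRT8 (type II) and KRT18 (type I) are the pair of simple epithelia and of the luminal cells of the prostate, while KRT5 (type II) with KRT14 or KRT15 (type I) marks the basal layer. The 9 genes described here are KRT5, KRT7, KRT8 and KRT80, which are type II, and KRT10, KRT15, KRT17, KRT18 and KRT19, which are type I. They are the rows of the expression table that carry these names, 9 of 26439 genes kept and 9 of the 55 keratin genes in it, 29 of them type I and 26 type II. The list was drawn up with their levels and knockdown differences in these same libraries known, so those values are given as a description, without p values.

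The study depleted CXCR7, an atypical chemokine receptor whose gene is now named ACKR3, in prostate cancer cells that had become resistant to the prostate cancer drug enzalutamide, to find the pathways downstream of it. RNA was taken 4 days after lentiviral infection from 4 groups of 3 libraries: LNCaP-EnzR shCXCR7 and LNCaP-EnzR LKO, kept in 2 µM enzalutamide, and C4-2B-EnzR shCXCR7 and C4-2B-EnzR LKO, kept in 10 µM. LNCaP is a human prostate cancer line from a lymph node metastasis and C4-2B is a castration-resistant line derived from it. Each control received the pLKO vector, so every group had both the virus and the drug, and the knockdown groups carried a short hairpin against CXCR7, whose sequence the sources used here do not give. The labels also give the LNCaP-EnzR samples 1 passage label and the C4-2B-EnzR samples another, so line, drug dose and passage cannot be told apart. The paper describes 3 libraries per group for LNCaP-EnzR but 2 for C4-2B-EnzR, whereas the sample labels give 3 in each group, all used here. No source used here states whether replicates were separate cultures, so the spread between libraries may be technical.

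Expression is given in RPKM, reads scaled to gene length and to the library's total, rescaled within each line by median-of-ratios factors, which set the typical gene to the same level in every library. RPKM values step by whole reads, which gave 6.38 to 9.83 M reads in genes per library. In the library of LNCaP-EnzR shCXCR7 replicate 3, 27.4% of 35.67 M reads lay in genes, against 67.0% to 75.5% of 9.53 to 14.08 M in the other 11, and 1636 genes were at 0 against 8719 to 9652. The 3685 genes at 0 in all of the other 11 libraries had a median of 0.33 RPKM in this one, and values without it are given beside the results it moves most. ACKR3 stood at 56.3, 51.2 and 40.0 RPKM in LNCaP-EnzR shCXCR7, against 123.6, 119.0 and 112.5 RPKM in LNCaP-EnzR LKO libraries. It stood at 22.2, 23.7 and 18.9 RPKM in C4-2B-EnzR shCXCR7, against 83.3, 86.5 and 85.9 RPKM in C4-2B-EnzR LKO libraries, so the groups did not overlap in either line.

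KRT8 and KRT18, the luminal pair, were the most abundant keratins of these cells. With KRT10, a keratin of stratified epithelium, they made up 90.2% to 99.0% of the summed RPKM of all 55 keratins in 11 libraries. The share was 72.1% in LNCaP-EnzR shCXCR7 replicate 3. Other keratins of simple or ductal epithelium were low. KRT7 had at most 2 reads in any of those 11 libraries. KRT19 stood at 0.456, 0.471 and 0.112 RPKM in LNCaP-EnzR LKO and 2.67, 2.39 and 2.48 RPKM in C4-2B-EnzR LKO libraries. All 8 prostate luminal markers, among them KLK3 and HOXB13, were at 0.5 RPKM or more in every library. Of the basal genes, KRT5 had at most 2 reads and KRT15 at most 1 in any of the other 11 libraries, KRT14 at most 3, and TP63, the transcription factor that defines the basal layer, at most 5. Of the 8 prostate basal markers, the integrin chain ITGB4 was the exception, at 7.52, 6.54 and 8.34 RPKM in C4-2B-EnzR shCXCR7 and 13.9, 10.8 and 11.1 RPKM in C4-2B-EnzR LKO libraries. The basal side of the list's name was therefore not borne out by its basal keratins or TP63, and only KRT17, described below, was well above 0 among the members linked to basal cells. These are bulk libraries, in which more cells with a transcript and more transcript per cell cannot be told apart.

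KRT8 mRNA was the most abundant type II keratin in every library and was higher in all C4-2B-EnzR shCXCR7 libraries than in their controls. It stood at 89.7, 79.7 and 80.7 RPKM in C4-2B-EnzR shCXCR7, against 47.6, 46.4 and 59.0 RPKM in C4-2B-EnzR LKO libraries. The means were 83.3 ± 5.51 and 51.0 ± 6.91 RPKM (SD, n = 3 each), a log2 fold change of 0.71 (SE 0.10). Fold changes here and below are on the scale of log2(RPKM + 0.25), which understates changes of low genes. In LNCaP-EnzR the knockdown libraries held 81.4, 88.6 and 65.9 RPKM, against 61.6, 68.1 and 65.4 RPKM in LKO libraries. The first pair of knockdown libraries lay above every control and replicate 3 lay among the controls, and the log2 fold change was 0.26 (SE 0.13), or 0.38 without that replicate. Values as deposited, in which the median of all genes lay at -0.31, put KRT8 at -0.04 and KRT18 at -0.02 in LNCaP-EnzR. Those averages rest on replicate 3. As deposited, KRT8 was 94.7, 105.5 and 34.3 RPKM in LNCaP-EnzR shCXCR7, against 67.5, 76.8 and 72.6 RPKM in LKO libraries. KRT18 was 93.8, 98.1 and 33.7 RPKM, against 66.1, 70.9 and 69.5 RPKM. The direction of the averages there thus depends on how replicate 3 is scaled.

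KRT18, the partner of KRT8 in luminal filaments, differed in the same direction but less in C4-2B-EnzR. Its values were 74.8, 68.5 and 59.8 RPKM in C4-2B-EnzR shCXCR7, against 50.1, 48.5 and 56.6 RPKM in C4-2B-EnzR LKO libraries, with a log2 fold change of 0.38 (SE 0.10). The lowest knockdown library was only just above the highest control. In LNCaP-EnzR it stood at 80.6, 82.4 and 64.8 RPKM in shCXCR7, against 60.4, 62.8 and 62.7 RPKM in LKO libraries, and the log2 fold change was 0.28 (SE 0.12). Groups did not overlap for KRT18 in either line, as was so for 49.9% of the genes tested in LNCaP-EnzR cells and for 54.4% of those in C4-2B-EnzR. Without replicate 3 the LNCaP-EnzR log2 fold change was 0.39.

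The ratio of KRT8 to KRT18 within a library does not depend on the scaling. It was 1.20, 1.16 and 1.35 in C4-2B-EnzR shCXCR7, against 0.95, 0.96 and 1.04 in C4-2B-EnzR LKO libraries. In LNCaP-EnzR it was 1.01, 1.08 and 1.02 in shCXCR7, against 1.02, 1.08 and 1.04 in LKO libraries. The groups were apart in C4-2B-EnzR and overlapped in LNCaP-EnzR, where the library that stands apart had a ratio within the range of the others. The summed RPKM of type II over type I keratins was 0.932 ± 0.0437 in C4-2B-EnzR shCXCR7 and 0.786 ± 0.0361 in C4-2B-EnzR LKO libraries (SD, n = 3 each). In LNCaP-EnzR it was 0.961, 1.01 and 1.04 in shCXCR7, against 0.875, 0.931 and 0.911 in LKO libraries, so the groups were apart in both lines. These sums hold all 55 keratins. KRT6C, a type II keratin outside the list, stood at 5.74, 5.54 and 5.71 RPKM in LNCaP-EnzR shCXCR7 libraries. Its LKO values there were 0.796, 0.578 and 0.722 RPKM. In shCXCR7 replicate 3, keratins other than KRT8, KRT18 and KRT10 made up 27.9% of the summed RPKM. How far these move the LNCaP-EnzR ratio was not tested. In GENCODE 44 (GRCh38) KRT8 (chr12:52897187-52949954, - strand) and KRT18 (chr12:52948871-52952906, + strand) overlap by 1084 bases on opposite strands. The canonical KRT8 transcript starts at chr12:52905076 and does not reach KRT18, so the overlap belongs to KRT8 transcripts that start further upstream. Which transcripts were counted and how strand was handled are not stated, so reads in that stretch cannot be told apart. Both genes also have many processed pseudogenes that can share reads.

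**Figure D1:**
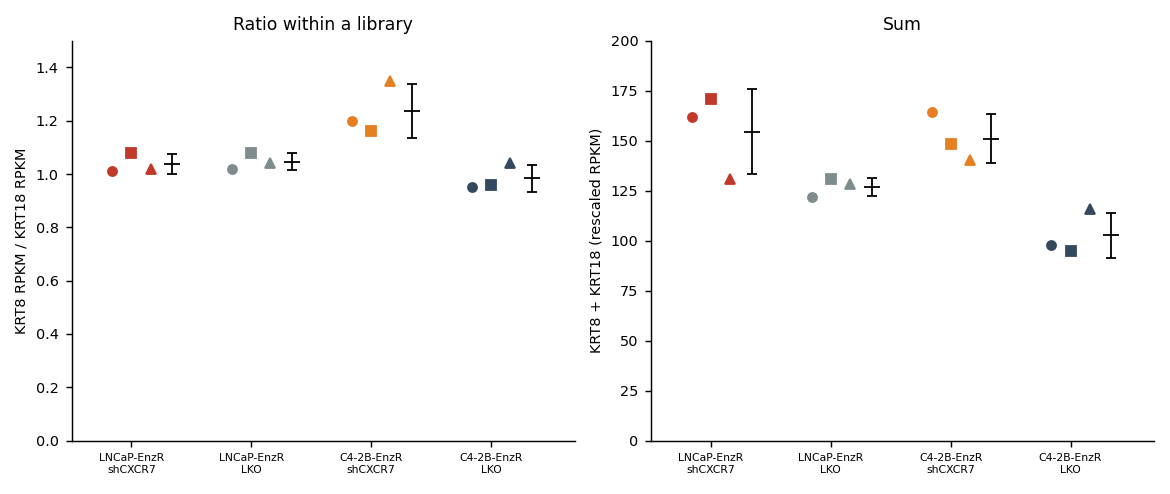
Left, the ratio of KRT8 to KRT18 RPKM in each of the 12 libraries (circle, square and triangle are replicates 1, 2 and 3), and right, the sum of KRT8 and KRT18 in rescaled RPKM, with bars for the mean ± SD of each group. The C4-2B-EnzR shCXCR7 libraries have ratios of 1.16 to 1.35, above the 0.95 to 1.04 of C4-2B-EnzR LKO libraries, and the LNCaP-EnzR groups lie on top of each other in the ratio.

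KRT10, a type I keratin of the suprabasal layers of stratified epithelium, was the other keratin present in all libraries at a sizeable level. It stood at 15.6, 18.2 and 13.7 RPKM in C4-2B-EnzR shCXCR7, against 11.9, 11.5 and 14.1 RPKM in C4-2B-EnzR LKO libraries, with a log2 fold change of 0.33 (SE 0.12). In LNCaP-EnzR the means were 10.5 ± 0.969 RPKM in shCXCR7 and 10.5 ± 0.30 RPKM in LKO libraries (SD, n = 3 each). The groups overlapped in both lines. KRT10 (chr17:40818117-40822614, - strand) lies in the type I cluster on chromosome 17 with KRT15, KRT17 and KRT19, whereas KRT18 lies with the type II genes on chromosome 12.

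Start sites were looked up in RefSeq's promoter windows (GRCh38.p14, 250 bases before to 50 after a gene's start), which matched 3 of the 9 genes: KRT5, KRT8 and KRT10. KRT7, KRT15, KRT17, KRT18, KRT19 and KRT80 were not matched. The windows of KRT10, which these cells transcribe, and of KRT5, which had hardly a read, are shown because they start where the canonical GENCODE transcript does, with the TATA box in capitals, and both lie on the - strand. The KRT8 window belongs to a start 21393 bases upstream of the canonical one and is not shown.
KRT10 (chr17:40822565-40822864): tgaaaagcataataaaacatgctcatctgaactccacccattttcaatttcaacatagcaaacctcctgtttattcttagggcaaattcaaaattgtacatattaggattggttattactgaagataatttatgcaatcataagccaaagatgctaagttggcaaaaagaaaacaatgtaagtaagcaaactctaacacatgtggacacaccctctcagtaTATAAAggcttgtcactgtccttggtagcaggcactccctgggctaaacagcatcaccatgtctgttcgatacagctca
KRT5 (chr12:52520345-52520644): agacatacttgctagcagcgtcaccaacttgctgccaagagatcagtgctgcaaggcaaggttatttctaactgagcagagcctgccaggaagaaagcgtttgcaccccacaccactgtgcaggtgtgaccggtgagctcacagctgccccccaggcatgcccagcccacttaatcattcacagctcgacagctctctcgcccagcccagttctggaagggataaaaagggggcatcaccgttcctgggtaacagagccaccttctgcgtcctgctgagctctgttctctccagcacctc
Searched on both strands, the box's letters TATAAA were found 1 time in KRT10, at position -29 from the start, and in neither of the other windows, against 11.5% of 35116 windows of the same length. The SP1 motif GGGCGG, held by 45.0% of windows, had no match in these 3. The same was so of the AP-1 motif TGANTCA, held by 7.71% of windows, and of the AP-2 motif GCCNNNGGC, held by 23.2%. A missing match says only that those letters are not in the window.

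KRT17, a type I keratin of basal cells and of stressed or wounded epithelium, was counted in every C4-2B-EnzR shCXCR7 library and was next to 0 in every control library of both lines. It had 85, 45 and 190 reads in C4-2B-EnzR shCXCR7 libraries, against 0, 0 and 1 in C4-2B-EnzR LKO libraries, or 4.37, 2.50 and 10.1 RPKM against 0, 0 and 0.05 RPKM. The summed 320 reads against 1 give a ratio of 308, with an exact 95% interval of 55.0 to 12200 that covers counting error only. Without replicate 3 of the knockdown, 130 reads against 1 give a ratio of 188 (33.2 to 7500). The knockdown libraries differed among themselves, with the highest value in replicate 3, and all lay far above the controls. The share of KRT17 among type I keratin RPKM was 4.46%, 2.70% and 11.6% in C4-2B-EnzR shCXCR7, against at most 0.0689% in C4-2B-EnzR LKO libraries.

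In LNCaP-EnzR KRT17 stayed low, with 4, 6 and 24 reads in shCXCR7, against 0, 0 and 1 in LKO libraries. The 24 reads come from the library that stands apart and amount to 0.427 RPKM as deposited, near that library's level for genes that are otherwise at 0. The other two libraries gave 10 reads against 1, a ratio of 12.8 with an exact 95% interval of 1.83 to 557, against 26.9 (4.52 to 1100) with all libraries. KRT17 (chr17:41619442-41624842, - strand) is close in sequence to KRT14 and KRT16 and has pseudogene copies, so its reads may be split among them. KRT14 had at most 3 reads in any of the 11 libraries and KRT16 at most 26 in C4-2B-EnzR, and the part of shared reads was not tested. The skin keratinocyte markers KRT1 and LOR were at 0 in all 11 of them, and the 10 skin markers summed to 0.111 to 0.758 RPKM there and to 8.79 RPKM in LNCaP-EnzR shCXCR7 replicate 3.

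**Figure D2:**
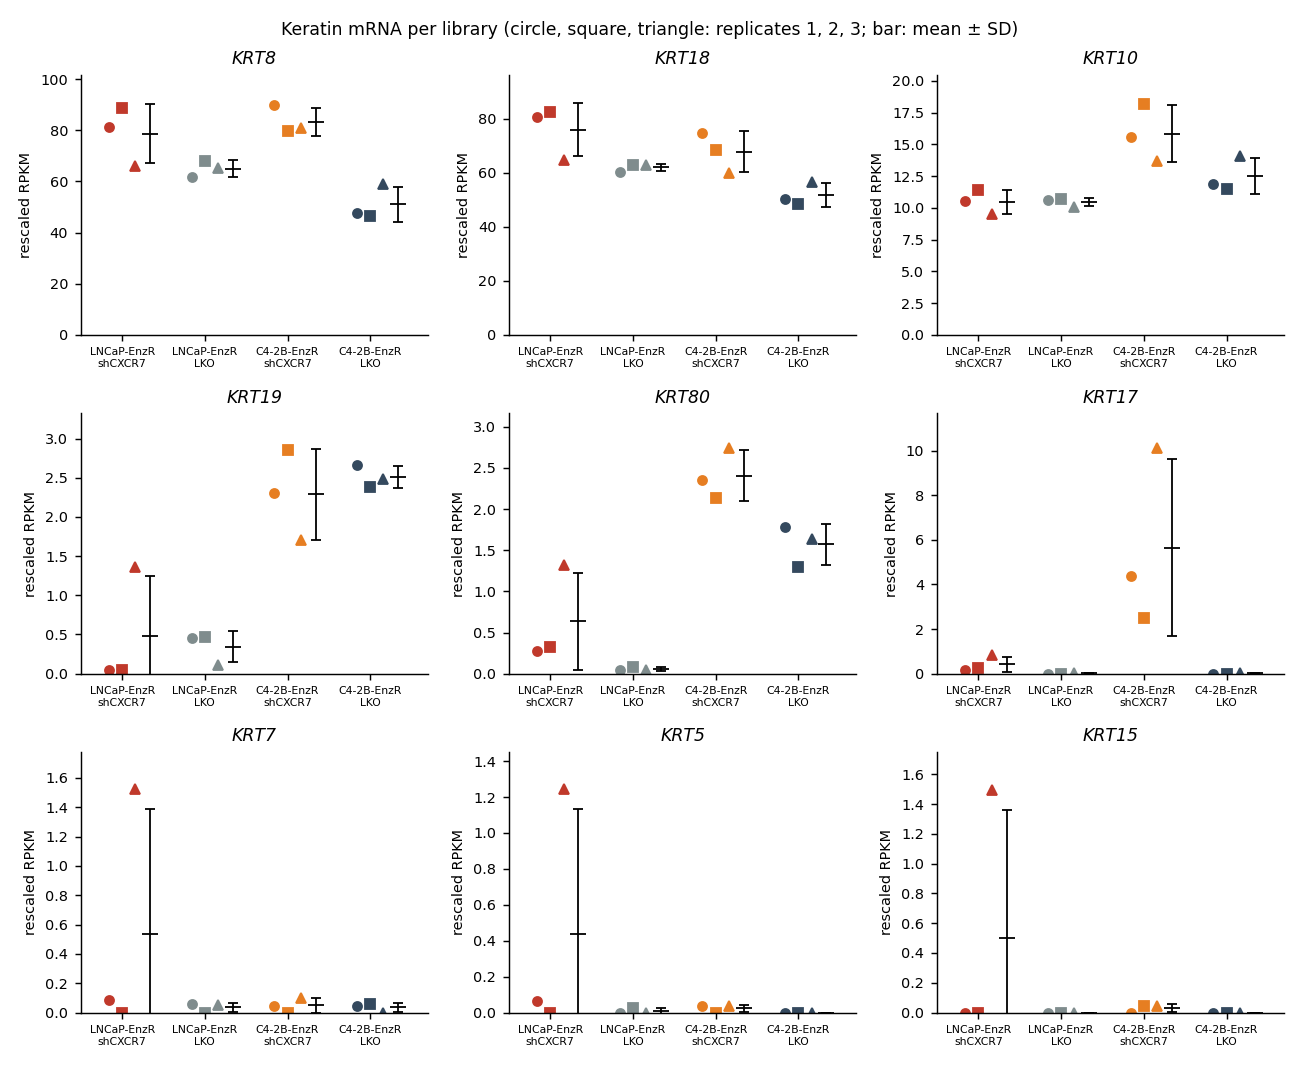
Rescaled RPKM of the 9 keratin genes in each library (circle, square and triangle are replicates 1, 2 and 3), on axes that start at 0 and differ between genes, with the mean ± SD of each group (SD bars that reach below 0 are cut). KRT17 stands at 2.50 to 10.1 RPKM in C4-2B-EnzR shCXCR7 and at or under 0.05 RPKM in C4-2B-EnzR LKO libraries, while KRT5, KRT7 and KRT15 are above 0.1 RPKM only in LNCaP-EnzR shCXCR7 replicate 3.

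KRT80, a type II keratin of the cell periphery, differed more between lines than with knockdown. It stood at 2.35, 2.13 and 2.74 RPKM in C4-2B-EnzR shCXCR7, against 1.78, 1.30 and 1.63 RPKM in C4-2B-EnzR LKO libraries, without overlap and with a log2 fold change of 0.55 (SE 0.15). In LNCaP-EnzR it had 15, 20 and 95 reads in shCXCR7, against 2, 5 and 2 in LKO libraries, too low for the filter of 0.5 RPKM in 3 of 6 libraries. Without replicate 3, the 35 reads against 9 give a ratio of 4.99 (exact 95% interval 2.35 to 11.8), against 11.4 (5.85 to 25.6) with all libraries. Both intervals cover counting error only. KRT80 was above its controls in every knockdown library of both lines, with replicate 3 of LNCaP-EnzR at 0.684 RPKM as deposited, inside the 0.097 to 1.05 RPKM that this library lists for 25 keratins at 0 in all the others. KRT80 (chr12:52168996-52192014, - strand) is on chromosome 12.

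KRT19 (chr17:41523617-41528308, - strand), a small type I keratin of simple and ductal epithelium, stood at 2.31, 2.85 and 1.70 RPKM in C4-2B-EnzR shCXCR7, against 2.67, 2.39 and 2.48 RPKM in C4-2B-EnzR LKO libraries. The groups overlapped, and the log2 fold change was -0.15 (SE 0.17). In LNCaP-EnzR it had 1, 1 and 37 reads in shCXCR7, against 7, 11 and 2 in LKO libraries. The direction there rests on 1 library, since the ratio is 1.55 (exact 95% interval 0.88 to 2.8) with replicate 3 and 0.128 (0.0145 to 0.528) without it. These intervals cover counting error only and leave out the spread between libraries.

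KRT7 (chr12:52232520-52252186, + strand), the type II keratin of ductal and glandular epithelium, KRT5 (chr12:52514575-52520530, - strand) and KRT15 (chr17:41513745-41522529, - strand) had 0 to 2 reads in each of the 11 libraries. In LNCaP-EnzR shCXCR7 replicate 3 they had 48, 53 and 50 reads, or 0.791, 0.645 and 0.777 RPKM as deposited. The 25 other keratins at 0 in all of the other 11 libraries lay between 0.097 and 1.05 RPKM in that library, with a median of 0.452 RPKM, and the values of KRT7, KRT5 and KRT15 fell inside that range. A difference in these genes was not detectable at this depth.

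**Figure D3:**
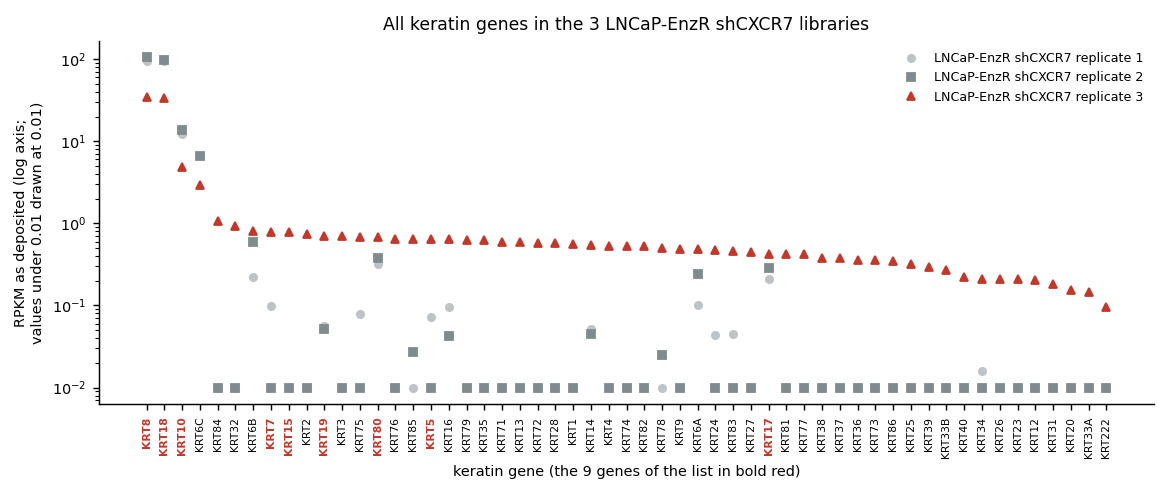
RPKM as deposited (log axis, values under 0.01 drawn at 0.01) of the 55 keratin genes in the 3 LNCaP-EnzR shCXCR7 libraries, sorted by their value in replicate 3, with the 9 genes of the list in bold red. Replicate 3 (triangles) lists keratins that replicates 1 and 2 have at or near 0, with the 25 keratins at 0 in the other 11 libraries between 0.097 and 1.05 RPKM, and lists KRT8, KRT18 and KRT10 lower than they do.

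Counted over the list, limma's test within C4-2B-EnzR called 4 of the 6 members that passed the filter as higher at an adjusted p under 0.05, KRT8, KRT18, KRT80 and KRT17, and none as lower, where 20.9% of 13342 genes were called higher and 21.3% lower. With the stricter limits of 2-fold and 0.001 it called KRT17, where 1.59% of genes were called higher. In LNCaP-EnzR it called 0 of the 3 members that passed, in either direction, where 16.0% of 13092 genes were called higher and 21.3% lower, and 0 at the stricter limits, where 1.81% were called higher. At an unadjusted p under 0.05 it called 1 of the 3, and voom on the recovered reads called KRT18. Without replicate 3 of the knockdown, 2 were called, KRT8 and KRT18. The list was chosen on these contrasts, and KRT17 met the filter in C4-2B-EnzR only through the knockdown libraries, so nothing is read from the list's counts.

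The C4-2B-EnzR count also depended on single libraries. Without C4-2B-EnzR LKO replicate 2 there were 2 called (KRT8 and KRT17), without C4-2B-EnzR shCXCR7 replicate 1 there was 1 (KRT8), and without C4-2B-EnzR shCXCR7 replicate 2 there were 2 (KRT8 and KRT80). KRT17 was not tested without a knockdown library, since 2 libraries could not meet the filter. With the filter set to 2 libraries, chosen after seeing the data, its log2 fold changes in those fits were 3.74 to 4.69, against 4.26 (SE 0.43) with all 6 libraries. KRT17 met either filter only through the knockdown libraries, which fixes its direction, so these values are a description and no support for its call. KRT8 was called in every fit that left out 1 C4-2B-EnzR library. These fits share libraries and KRT8 was chosen on these contrasts, so its repeated calls are a description too. KRT18 was not called without LKO replicate 2 or without shCXCR7 replicate 1 or 2, and KRT80 not without LKO replicate 2 or shCXCR7 replicate 1 or 3.

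**Figure D4:**
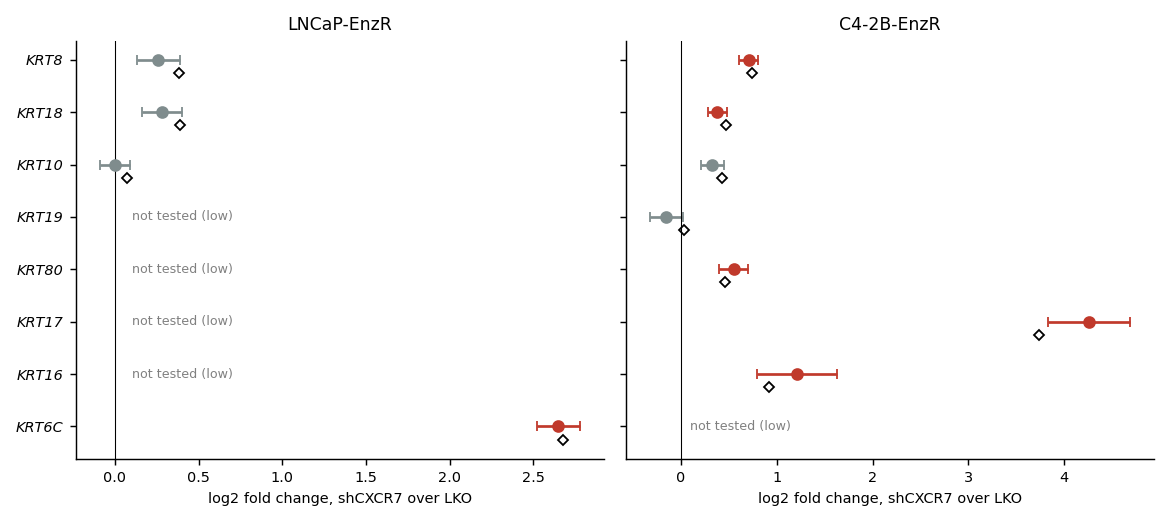
Log2 fold change of shCXCR7 over LKO (points, with SE) for 6 of the listed keratins and for KRT16 and KRT6C, in LNCaP-EnzR (left) and C4-2B-EnzR (right, on its own scale), red where the adjusted p was under 0.05 and grey where not. Open diamonds give the value without shCXCR7 replicate 3 of the line, which is 0.38 for KRT8 in LNCaP-EnzR and 3.74 for KRT17 in C4-2B-EnzR.

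The knockdown differences of the lines were compared with an interaction term over the 12 libraries, C4-2B-EnzR minus LNCaP-EnzR. KRT17 had a difference of 2.88 (SE 0.66) on the log2 scale and was the 1 of 6 members past the threshold, where 5.81% of 14211 genes were called higher and 4.90% lower. Since the members were chosen on these contrasts, that is a description and nothing is read from it. The difference was 0.46 (SE 0.16) for KRT8, 0.11 (SE 0.15) for KRT18, 0.34 (SE 0.15) for KRT10 and -0.85 (SE 0.50) for KRT80, none of which was called. Without LNCaP-EnzR shCXCR7 replicate 3 the differences were 3.35 for KRT17, 0.34 for KRT8, 0.00 for KRT18, 0.27 for KRT10 and -0.36 for KRT80. For KRT19 the difference was 0.01 (SE 0.77), or 0.90 without that library.

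Between the controls, C4-2B-EnzR LKO set against LNCaP-EnzR LKO libraries, the simple-epithelial pair was lower and KRT80 and KRT19 were higher. On factors over all 12 libraries, KRT8 averaged 46.2 ± 6.05 and 70.9 ± 3.59 RPKM and KRT18 46.9 ± 3.67 and 67.6 ± 1.57 RPKM in C4-2B-EnzR LKO and LNCaP-EnzR LKO libraries (SD, n = 3 each). The log2 differences were -0.62 (SE 0.10) for KRT8, -0.53 (SE 0.07) for KRT18, 2.41 (SE 0.19) for KRT80 and 2.08 (SE 0.28) for KRT19, while KRT10 did not differ beyond its spread. That is 2 higher and 2 lower of 5 tested, where 32.9% of 13294 genes were called higher and 31.9% lower. KRT80 and KRT19 met the filter only through the C4-2B-EnzR LKO libraries, where they are high. The LNCaP-EnzR LKO libraries together held 9 reads of KRT80 and 20 of KRT19. Nothing is read from the count or from the direction of these genes. In the order of group means, KRT8 was highest in LNCaP-EnzR shCXCR7, then C4-2B-EnzR shCXCR7, then LNCaP-EnzR LKO libraries, with neighbouring ranges that overlapped, and lowest in C4-2B-EnzR LKO libraries, which lay apart. For KRT18 both LNCaP-EnzR groups came before both C4-2B-EnzR groups, and only LNCaP-EnzR LKO and C4-2B-EnzR shCXCR7 libraries overlapped.

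Among the 46 keratins outside the list, KRT6C and KRT16 passed the filter of a line. KRT6C, a type II keratin of palm and sole skin, rose in LNCaP-EnzR, with 5.74, 5.54 and 5.71 RPKM in shCXCR7, against 0.796, 0.578 and 0.722 RPKM in LKO libraries (log2 fold change 2.65, SE 0.13, adjusted p = 7.39e-07 from limma). Replicate 3 was level with the others, and the log2 fold change without it was 2.68. In C4-2B-EnzR KRT6C had at most 4 reads in any library, so it was high in the line where KRT17 was low. KRT6A and KRT6B, nearly the same in sequence, had at most 8 and 18 reads in the 11 libraries, and how reads were shared among the 3 is uncertain. KRT16, a type I keratin of stressed epithelium, had 0.659, 0.509 and 1.26 RPKM in C4-2B-EnzR shCXCR7, against 0.523, 0.12 and 0.0462 RPKM in C4-2B-EnzR LKO libraries (log2 fold change 1.21, SE 0.42, adjusted p = 0.0492 from limma). These groups overlapped, and the call was lost with the replicate block and without any 1 library of the line except LKO replicate 1. It was also lost with either other pseudocount, without the filter, without the variance trend and in 1 fit of all 12 libraries. KRT16 met the filter mostly through the knockdown libraries, where it is high, so its call is a description.

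Of the genes that anchor keratins to cell junctions, those of the desmosome moved in both directions. In C4-2B-EnzR 3 of 10 tested rose and 2 fell, and in LNCaP-EnzR 2 rose and 1 fell, with list medians of -0.12 and 0.14 on the log2 scale. Over all genes tested, 20.9% rose and 21.3% fell in C4-2B-EnzR and 16.0% rose and 21.3% fell in LNCaP-EnzR, and the counts of each list below stand beside those shares. PERP, a tetraspan desmosome protein, stood at 34.1 ± 1.41 RPKM in C4-2B-EnzR shCXCR7 and 16.5 ± 0.109 RPKM in C4-2B-EnzR LKO libraries (SD, n = 3 each), a log2 fold change of 1.04 (limma adjusted p = 3.34e-05), and rose by 0.53 in LNCaP-EnzR (limma adjusted p = 0.00652). JUP, plakoglobin, rose in C4-2B-EnzR (0.33), and PKP4, an armadillo protein of junctions, rose in both lines (0.25 in C4-2B-EnzR and 0.41 in LNCaP-EnzR). The desmosomal cadherin DSG2 (-0.39) and the plakin PPL (-0.40) fell in C4-2B-EnzR, and the plakin EVPL (-0.40) fell in LNCaP-EnzR.

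Of the hemidesmosome and keratin-binding genes, 2 of 10 tested rose and 3 fell in C4-2B-EnzR, and 2 of 9 rose and 1 fell in LNCaP-EnzR, with list medians of 0.02 and -0.05. EPPK1, epiplakin, which binds keratin filaments, stood at 6.91, 5.78 and 8.57 RPKM in C4-2B-EnzR shCXCR7, against 3.6, 3.18 and 2.86 RPKM in C4-2B-EnzR LKO libraries, with a log2 fold change of 1.07 (limma adjusted p = 0.00111). It rose by 0.61 in LNCaP-EnzR (limma adjusted p = 0.000549), and the integrin chain ITGA6 rose by 0.60 in C4-2B-EnzR and 0.35 in LNCaP-EnzR. Its partner ITGB4 (-0.65) and the keratin-binding TCHP (-0.49) fell in C4-2B-EnzR, and the laminin chain LAMA3 fell in both lines (-0.50 and -0.34). The LAMA3 groups overlapped in C4-2B-EnzR, at 43.1, 42.2 and 53.4 RPKM in shCXCR7, against 80.0, 67.5 and 51.3 RPKM in LKO libraries. ITGB4 was the only one of the 8 basal markers that passed the filter in either line.

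Of intermediate filament genes other than keratins, 5 of 7 rose and none fell in LNCaP-EnzR, with a list median of 0.55. In C4-2B-EnzR 2 of 7 rose and 1 fell, with a list median of 0.30. Of the 5, BFSP1 stood at 1.34, 1.1 and 2.4 RPKM in LNCaP-EnzR shCXCR7, against 0.159, 0.314 and 0.275 RPKM in LKO libraries. BFSP1 met the filter only through the knockdown libraries, which fixes its direction, so its rise adds no support to the count. VIM, vimentin, the filament of mesenchymal cells, stood at 22.7, 20.7 and 20.9 RPKM in C4-2B-EnzR shCXCR7, against 3.52, 3.96 and 3.53 RPKM in C4-2B-EnzR LKO libraries, a log2 fold change of 2.47 (limma adjusted p = 6.61e-06). In LNCaP-EnzR it stood at 16.9, 18.3 and 15 RPKM in shCXCR7, against 6.60, 5.31 and 5.73 RPKM in LKO libraries, a log2 fold change of 1.47 (limma adjusted p = 6.49e-06). The nuclear lamin LMNB1 rose in LNCaP-EnzR (0.46) and fell in C4-2B-EnzR (-0.62). The 8 fibroblast markers summed to 8.85 to 10.3 RPKM in C4-2B-EnzR shCXCR7 and 9.32 to 12 RPKM in C4-2B-EnzR LKO libraries, with COL1A2 and PDGFRA at 0 in both groups. In LNCaP-EnzR they summed to 3.99 to 8.71 RPKM in shCXCR7, the highest being replicate 3, and 3.61 to 3.99 RPKM in LKO libraries.

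Of the listed regulators of keratin genes, 5 of 13 rose and 3 fell in LNCaP-EnzR, and 1 of 13 rose and 4 fell in C4-2B-EnzR, with list medians of -0.03 and 0.04. TFAP2A, an AP-2 factor active in keratinocytes, rose in both lines, by 0.79 in C4-2B-EnzR and 1.06 in LNCaP-EnzR (limma adjusted p = 0.00073 and 0.00021). EHF, an epithelial ETS factor, fell by 0.86 in C4-2B-EnzR and by 0.81 in LNCaP-EnzR (limma adjusted p = 0.000264 and 0.000289), and the epithelial factors GRHL2 (-0.34 and -0.44) and FOXA1 (-0.21 and -0.35) fell in both. Of the 8 prostate luminal markers, 6 fell and 1 rose in C4-2B-EnzR, and 4 fell and none rose in LNCaP-EnzR, with list medians of -0.36 and -0.35. KLK3, which encodes prostate-specific antigen, fell to 29.8 ± 2.75 RPKM in C4-2B-EnzR shCXCR7, against 103.0 ± 8.96 RPKM in C4-2B-EnzR LKO libraries (SD, n = 3 each). In the same C4-2B-EnzR shCXCR7 libraries KRT8 and KRT18 were above their controls. The medians of all genes tested were within 0.02 of 0 in both lines.

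Genes whose pattern was most like a member's were ranked by Pearson's r over the 12 libraries, with each line centred on its own mean, among 11855 genes. For KRT8 they were BRI3 (r = 0.986), ECH1 (0.982) and TKT (0.98), and for KRT18 they were THAP4 (0.988), RPLP1 (0.984) and NDUFS4 (0.98). For KRT10 they were GLTP (0.930), CD99 (0.928) and GSTM3 (0.923). KRT8 and KRT18 had an r of 0.93 with each other and KRT8 and KRT10 of 0.78. All of these points share the libraries, their scaling and the knockdown itself.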

How the data were processed

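Single-end RNA-Seq libraries were aligned by the authors to GRCh38 (hg38 in the submitters' notes) with STAR, and the authors deposited 1 table of RPKM per gene, which the methods call FPKM. The annotation and strand setting are not stated. Of 26475 lines, 32 without values and 4 repeating a symbol were left out. Whole reads were recovered from the steps of the deposited RPKM values, within 0.02 reads, for 100% of 25028 genes above 0; a gene seen in a single library counts as 1 read there. The test was limma 3.58.1 in R 4.3.3 on log2(rescaled RPKM + 0.25), with a variance trend. Genes entered at 0.5 RPKM or more in 3 or more libraries of the fit, and p values were adjusted by Benjamini-Hochberg over all genes tested. The stricter limits were 2-fold and an adjusted p under 0.001. The authors used DESeq2 on their counts. Here the deposited RPKM were tested, with voom on the recovered reads as an alternative. The fit was tested on simulated data. Summaries were made with pandas 2.3.3, numpy 2.4.6, scipy 1.17.1 and matplotlib 3.10.9 under Python 3.11.15. Replicates differed beyond counting error. The 9 members and the gene lists were chosen with earlier results of these data known. Genes with values were the members, other keratins past the filter, ACKR3, up to 4 genes per list and line with the smallest adjusted p, and the 3 genes nearest to each member tested in both lines. A few list members are counted but their own values are not reported here. Alternatives were other pseudocounts, filters, scalings, variance models, a joint fit of both lines, the replicate number as a block, background subtraction, voom and leaving out each library.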

Additional observations from a re-analysis of the deposited data

Results flagged for a closer look

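The knockdown effect on KRT17 differed between the lines by 2.88 on the log2 scale (SE 0.66, C4-2B-EnzR minus LNCaP-EnzR), or 3.35 without LNCaP-EnzR shCXCR7 replicate 3. KRT17 was listed with these values known, so its difference is a description, singled out by the interaction term of limma. The effect on KRT6C differed the other way, by -2.57 (SE 0.35, adjusted p = 0.00122 from limma). KRT6C had 6 reads in C4-2B-EnzR shCXCR7 and 4 in C4-2B-EnzR LKO libraries, so its level there was near 0. It met the filter only through LNCaP-EnzR libraries, so the difference mostly restates its LNCaP-EnzR log2 fold change of 2.65 and adds no support to it. KRT17 rests on 320 reads in C4-2B-EnzR shCXCR7 and 34 in LNCaP-EnzR shCXCR7 libraries, 24 of those 34 from replicate 3, against 1 read in each set of controls. The lines also differ in drug dose and passage label, so the part of each cannot be told apart.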

How the results depend on the processing

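Under the alternatives no called result of the knockdown or control comparisons reversed. The number of members called in LNCaP-EnzR, 0 in the fit reported, was 3 in 1 fit of all 12 libraries (KRT80, KRT17 and KRT18), 2 with the background of shCXCR7 replicate 3 subtracted, 2 with quantile normalization (KRT8 and KRT18 in both) and 1 with voom (KRT18). In C4-2B-EnzR, KRT10 was called too with factors over all 12 libraries, quantile normalization and voom (5 members each), and replaced KRT80 in 1 fit of all 12 libraries (4 members). Leaving out 1 library at a time gave 0 to 2 in LNCaP-EnzR, 1 to 5 in C4-2B-EnzR (4 with all), 1 to 2 for the difference between lines (1 with all, with KRT8 added without C4-2B-EnzR LKO replicate 3) and 3 to 4 between controls (4 with all). Of the partner genes on the 8 lists, 24 were called in either direction in LNCaP-EnzR cells and 26 in C4-2B-EnzR. The numbers tested are given list by list above, and nothing is read from these totals. Over all genes tested, 16.0% were called higher and 21.3% lower in LNCaP-EnzR, and 20.9% and 21.3% in C4-2B-EnzR. The LNCaP-EnzR number of partner genes was 4 on values as deposited. Leave-one-out ranges were 17 to 29 and 17 to 27, the lowest in C4-2B-EnzR coming without shCXCR7 replicate 1. As deposited, the median log2 difference of all genes was -0.31 in LNCaP-EnzR, where KRT8 was at -0.04, KRT18 at -0.02 and KRT10 at -0.30. The KRT6C difference between lines was not called with a pseudocount of 0.05 (-2.55). Same-numbered libraries of a line had correlated deviations of -0.11 to 0.06, and libraries of other numbers -0.15 to 0.10. No pairing by number was seen, which these correlations cannot exclude. With the replicate block the members called were 0, 4, 1 and 4 in the order above, and the partner genes 23 and 21. Values of low genes are limited by depth, since 1 to 3 reads in a library decide them, and intervals cover counting error only.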
